A study of Mus musculus with 2 samples.

Results

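The respiratory chain genes of BM LSKs were compared between 2 time points, week-0 and week-3. They were taken by name: the Nduf subunit genes of complex I, Sdha to Sdhd of complex II, the Uqcr genes of complex III, the Cox4 to Cox8 genes of complex IV, the Atp5 genes of complex V, and the protein-coding genes of the mitochondrial genome, with pseudogenes (-ps) left out. This gave 97 of 34745 genes in the tables, 84 of them nuclear and 13 mitochondrially encoded. LSKs are lineage-negative, Sca1-positive, c-Kit-positive cells, the gate that holds hematopoietic stem and progenitor cells. Both groups were Scl/tTA-BA mice on a B6 (C57BL/6) background, in which an Scl control element drives the tetracycline transactivator tTA and tTA drives BCR/ABL (BA). At week-0 the mice were on doxycycline, which keeps BA off, and at week-3 they had been without the drug for 3 weeks. The LSKs of 3 mice were mixed into 1 library per time point, so no p-value is given, and the ages of the mice were not given in the sources used here. BA expression and the absence of doxycycline cannot be told apart in this design. Tetracyclines are known to act on the mitochondrial ribosome as well as on bacterial ones.

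The respiratory chain sits in the inner mitochondrial membrane. Complexes I and II take electrons from NADH and succinate, coenzyme Q carries them to complex III, cytochrome c carries them on to complex IV, and complex V makes ATP from the proton gradient. Most subunits are encoded in the nucleus and imported, while a small core of complexes I, III, IV and V is encoded and translated inside the mitochondrion, and complex II is wholly nuclear. Resting stem cells are known to rely little on respiration, and cycling progenitors use it more.

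The tables held 6356164 reads on genes at week-0 and 3886695 at week-3. A floor of 3 reads equals 0.472 and 0.772 CPM in the respective libraries. Values are read counts or FPKM, which scales the reads of a gene by its exon length and by the depth of the library. A log2 ratio is log2 of FPKM at week-3 over FPKM at week-0. The bracketed range is its 95% counting interval, which treats reads as independent and does not cover the spread between mice or libraries. Of all genes, 12192 had at least 20 reads over both libraries, and their median log2 ratio was 0.07. The marker lists of other cells differed between the libraries. The summed FPKM of the 8 granulocyte and monocyte markers was 2007 at week-0 and 10854 at week-3, with all 8 past 1.5 times. That of the 8 mast and basophil markers was 136 and 3190, with 7 past 1.5 times (Tpsb2 was at 0 at week-0, and Gata2 was lower at week-3). Over all genes, 23.7% were past 1.5 times. The 6 erythroid markers went from 788 to 37.98, with 6 past 1/1.5. The 6 B and plasma cell markers went from 295 to 33.9 (1 at 0 at week-3, and Cd79b alone was 23.5 and 26.4), with 3 of 4 tested past 1/1.5. The 5 T and NK markers went from 285 to 427 (1 at 0 at week-3, and Nkg7 alone was 279 and 422). Of the 3 tested, 1 was past each fold. The 9 LSK and stem cell markers, none at 0, went from 310 to 119, and Flt3 alone was 157 and 38.9. Of these 9, 6 were past 1/1.5, and 1 was past 1.5 times, Slamf1, on 10 and 15 reads. Over all genes, 24.6% were past 1/1.5. In bulk RNA, fewer cells of a type and less RNA per cell cannot be told apart, and the part of these cell types in the values that follow was not tested.

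Nuclear and mitochondrially encoded genes both took a larger share of the reads at week-3, the mitochondrially encoded ones more so. The 13 mitochondrially encoded genes held 1.24% of the reads on genes at week-0 (exact Clopper-Pearson 95% interval 1.23 to 1.25) and 2.16% at week-3 (2.14 to 2.17). The nuclear members held 1.40% (1.39 to 1.41) and 1.88% (1.86 to 1.89). The mitochondrially encoded genes had 78868 and 83810 reads and the nuclear members 89009 and 72911. Near-identical copies of 7 mitochondrially encoded genes, described below, have reads under their own names. With these added, the mitochondrially encoded genes had 114043 and 120763 reads, 1.79% and 3.11% of the total, more than the nuclear members in both libraries. How reads that fit gene and copy alike were counted is not given in the sources used here. If such reads were counted on both, these sums hold them more than once, which was not tested. Summed over reads, the log2 ratio was 0.80 (0.78 to 0.81) for the mitochondrially encoded genes and 0.42 (0.41 to 0.44) for the nuclear members. The intervals do not overlap, and with 1 library per time point this difference has no replicate check.

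Of the 97 members, 92 had at least 20 reads, all 13 mitochondrially encoded and 79 nuclear. The 79 nuclear members had a median log2 ratio of 0.44, with quartiles at 0.28 and 0.57. A ratio above 1 was seen in 74 of the 79, beside 53.4% of all genes tested. A ratio of at least 1.5 was seen in 18 of the 79, beside 23.7% of all genes, so the share of nuclear members past 1.5 times was close to the background. The intervals of all 18 lay above a ratio of 1, beside 21.4% of all genes past 1.5 times with such an interval. A ratio of at most 1/1.5 was seen in 1 of the 79, beside 24.6% of all genes, and its interval lay below a ratio of 1, beside 21.4% of all genes. The nuclear members were therefore tightly grouped at a modest increase, with 60 of 79 between the 2 folds. The mitochondrially encoded genes had a median of 0.73, with quartiles at 0.57 and 0.94, and all 13 had a ratio above 1. Of these, 9 were past 1.5 times and 0 were past 1/1.5.

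**Figure D1:**
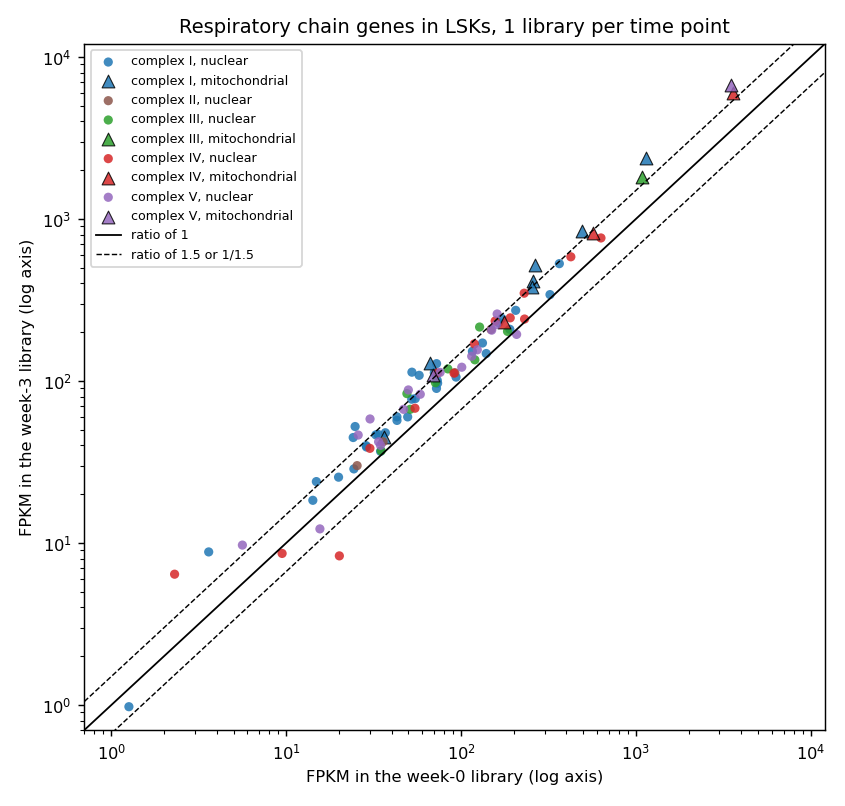
FPKM of the 92 members with at least 20 reads in the week-3 library against the week-0 library, both on log axes, with circles for nuclear and triangles for mitochondrially encoded genes and colours for complexes. All 13 triangles lie above the line of equal FPKM, and 5 circles lie below it.

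By complex, the nuclear medians were 0.45 for complex I (36 genes tested, 8 past 1.5 times) and 0.26 for complex II (4 genes, 0 past). They were 0.42 for complex III (8 genes, 2 past) and 0.36 for complex IV (14 genes, 3 past and 1 past 1/1.5). Complex V had 0.49 (17 genes, 5 past). These counts stand beside 23.7% of all genes past 1.5 times and 24.6% past 1/1.5. The mitochondrially encoded medians were 0.78 for the 7 genes of complex I, 0.73 for the single gene of complex III, 0.53 for the 3 genes of complex IV and 0.79 for the 2 genes of complex V. The mitochondrially encoded median was thus above the nuclear one in every complex that has both, by 0.33 in complex I, 0.32 in complex III, 0.17 in complex IV and 0.31 in complex V. The groups overlapped: 13 of the 79 nuclear members had a log2 ratio above the mitochondrially encoded median.

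**Figure D2:**
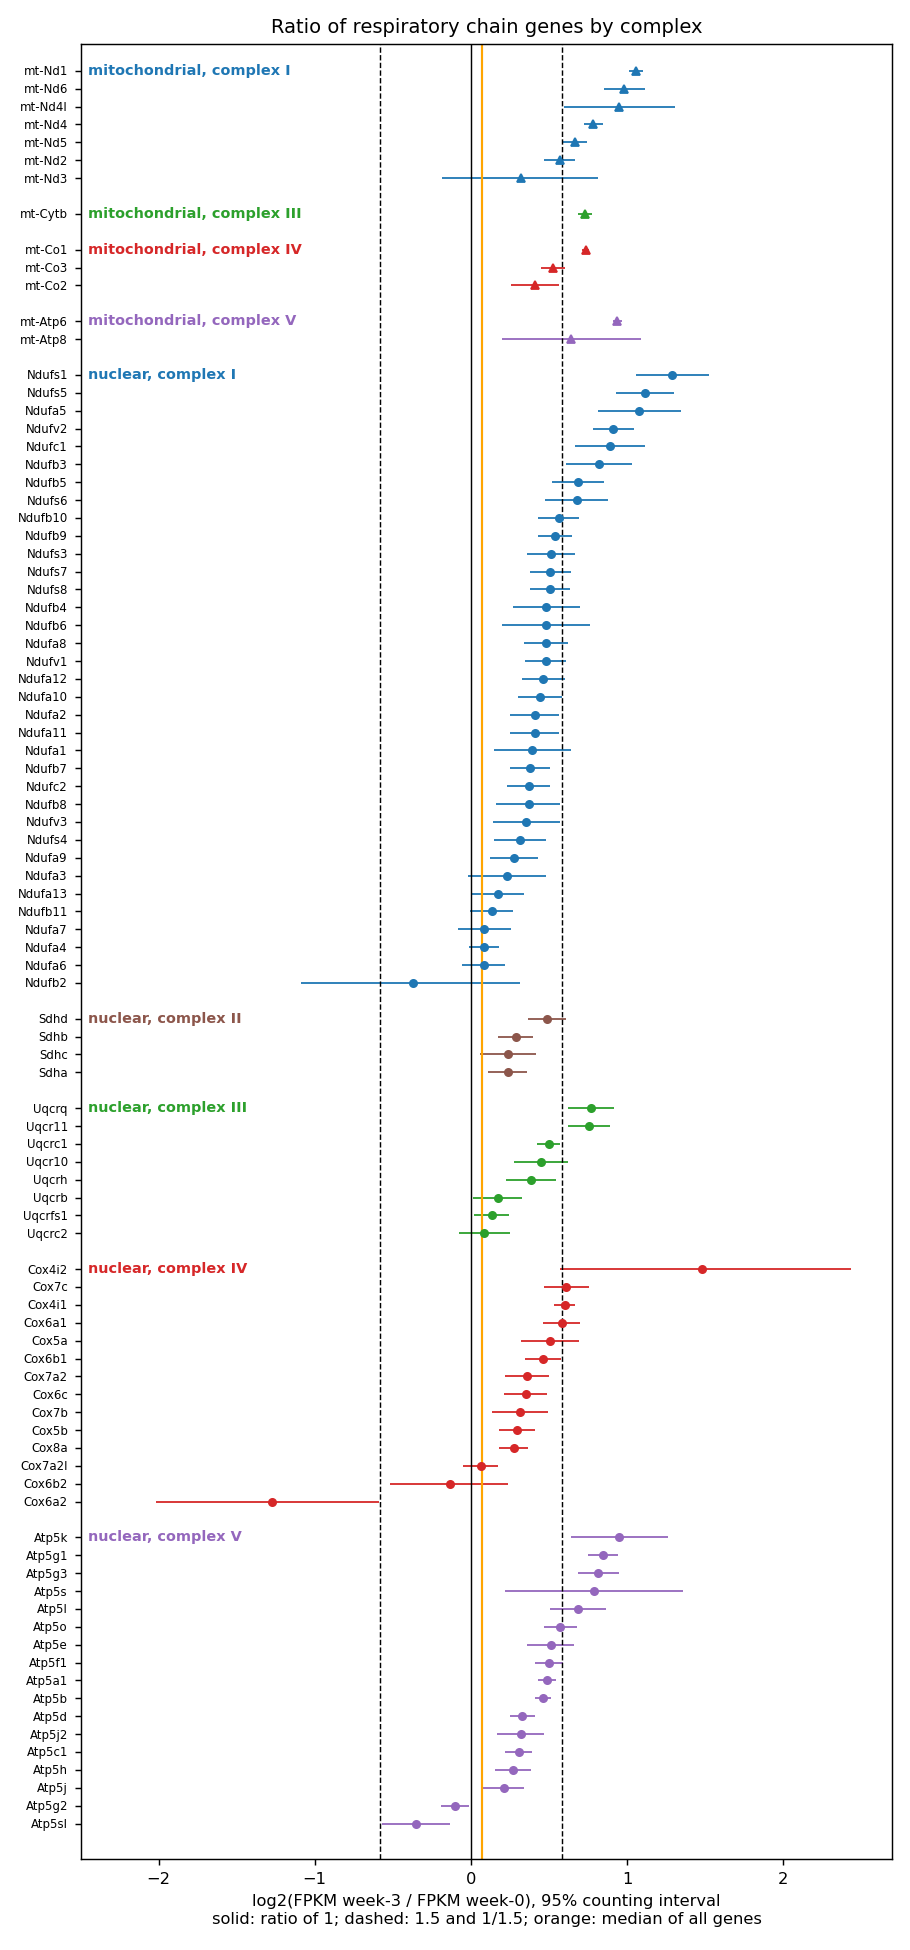
Log2 ratio of week-3 over week-0 FPKM for the members with at least 20 reads, grouped by genome and complex, with horizontal bars for the 95% counting interval. The solid line marks a ratio of 1, the dashed lines 1.5 and 1/1.5, and the orange line the all-gene median of 0.07, and most nuclear members sit between the orange line and the right dashed line.

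Among the mitochondrially encoded subunits of complex I, which form its proton-pumping membrane arm, the largest ratio was that of mt-Nd1 (MT:2751-3707 of GRCm38), with 6921 and 8806 reads, or 1138 and 2367 FPKM, a log2 ratio of 1.06 (1.01 to 1.10). mt-Nd6 (MT:13552-14070), the only member on the minus strand of the mitochondrial genome, had 867 and 1048 reads, or 263 and 520 FPKM, a log2 ratio of 0.98 (0.85 to 1.11). mt-Nd4l had 126 and 149 reads, a log2 ratio of 0.95 (0.60 to 1.31). These 3 were near a doubling, and their intervals overlap. mt-Nd4 followed at 0.78 (0.72 to 0.84), with 491 and 845 FPKM. mt-Nd5, which shares 14 bases with mt-Nd6 on opposite strands, was at 0.67 (0.59 to 0.74), with 259 and 411 FPKM. mt-Nd2, at 256 and 379 FPKM, was just short of 1.5 times, at 0.57 (0.47 to 0.67). mt-Nd3 had only 80 and 61 reads, and its interval, 0.32 (-0.19 to 0.82), included no difference. In the order of the ratios, the intervals of mt-Nd4 and mt-Nd1 did not overlap, while those of the neighbours mt-Nd4 and mt-Nd5 just did.

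mt-Cytb (MT:14145-15288), the cytochrome b of complex III, had 7920 and 8051 reads, or 1089 and 1811 FPKM, a log2 ratio of 0.73 (0.69 to 0.78). mt-Co1 (MT:5328-6872), the catalytic subunit of complex IV, had the most reads of all members, 35123 and 35761, or 3577 and 5955 FPKM, a log2 ratio of 0.74 (0.71 to 0.76). The other subunits of the complex IV core were lower in ratio, mt-Co3 at 0.53 (0.45 to 0.60) with 571 and 822 FPKM, and mt-Co2, which receives electrons from cytochrome c, at 0.41 (0.26 to 0.57) with 175 and 232 FPKM. The interval of mt-Co1 thus lay above those of mt-Co2 and mt-Co3. mt-Atp6 (MT:7927-8607), part of the proton channel of complex V, had 15142 and 17751 reads, or 3498 and 6706 FPKM, a log2 ratio of 0.94 (0.91 to 0.97), and was the member with the highest FPKM at week-3. mt-Atp8, whose reading frame overlaps that of mt-Atp6 by 43 bases, had 90 and 86 reads and a log2 ratio of 0.64 (0.20 to 1.09), which falls under 1.5 times with TMM or median-of-ratios scaling. The genes short of 1.5 times were thus mt-Nd2, mt-Nd3, mt-Co2 and mt-Co3.

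The nuclear genome holds near-identical copies of 7 mitochondrially encoded genes on chromosome 1, and the tables count reads on both. Over 4140 aligned bases the copies differed from the mitochondrial genes at 2 bases. Of 3447 windows of 100 bases, the length of a read, 3440 were identical, so almost no read within the aligned bases can be placed. The differences are T3C in mt-Nd3 and A1066T in mt-Co1, counted from 1 at the start of each gene, the gene's base first and the base of its copy last. The one in mt-Co1, whose copy is Gm29216, lies at the edge of the alignment, which covered 483 of the 492 bases of Gm29216. It may therefore mark where the likeness ends. It stands in capitals in the 30 bases from MT:6390-6419 of GRCm38, plus strand, and in the same stretch of the copy.
mt-Co1: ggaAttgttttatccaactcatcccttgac
Gm29216: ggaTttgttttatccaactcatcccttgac
The copies held 35175 and 36953 reads in the respective libraries. The copy of mt-Atp6, Gm10925 (chr1:24613974-24614651), had 19032 and 21902 reads, more than mt-Atp6 itself. Gm29216 had 11243 and 10089 reads, although it spans only 31.3% of mt-Co1. The FPKM of these 7 genes is therefore too low wherever their reads went to a copy alone. The ratios moved little when the reads of gene and copy were added up, by 0.08 at most, for mt-Co3 (0.53 alone and 0.60 together). That step took mt-Co3 past 1.5 times, so that 10 of the 13 genes were past it. mt-Nd1, mt-Nd2, mt-Nd5, mt-Nd6, mt-Cytb and mt-Atp8 had no such copy among the genes of the tables. Both the largest ratio, mt-Nd1, and the depth of mt-Cytb came from this group. mt-Atp8, however, lies between mt-Co2 and mt-Atp6, and the copy of mt-Co2 (chr1:24614885-24615565) is near that of mt-Atp6. Reads of mt-Atp8 placed between these 2 copies would not be counted on any gene here, which was not tested.

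**Figure D3:**
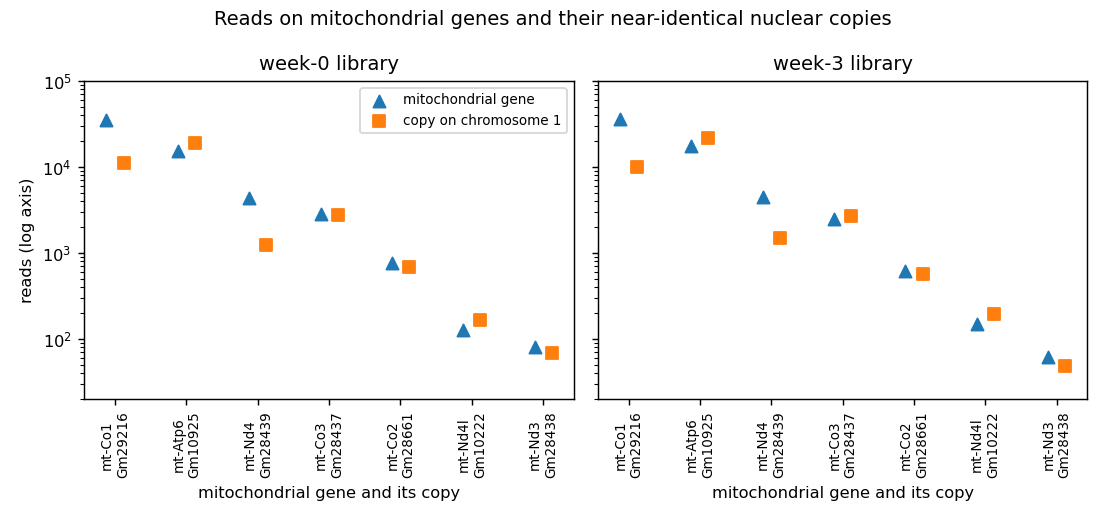
Reads on 7 mitochondrially encoded genes (triangles) and on their near-identical copies on chromosome 1 (squares), on a log axis, in the week-0 library at left and the week-3 library at right. For mt-Atp6 the copy holds more reads than the gene in both libraries, 19032 against 15142 at week-0 and 21902 against 17751 at week-3.

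Among the nuclear genes of complex I, Ndufs1 (chr1:63143596-63176833 of GRCm38), the large iron-sulfur subunit of the matrix arm, had 255 and 381 reads, or 3.60 and 8.80 FPKM, a log2 ratio of 1.29 (1.06 to 1.52). On the other strand its exons share 489 bases with Ino80dos, which had 38 and 47 reads, and 9 bases with Eef1b2, which had 1937 and 2374. Ndufs5, a small accessory subunit, was at 1.11 (0.93 to 1.30), from 52.3 to 113 FPKM. Ndufa5, an accessory subunit of the matrix arm, was at 1.08 (0.81 to 1.34), from 24.8 to 52.3 FPKM. These 3 were more than 2 times higher at week-3. Past 1.5 times followed Ndufv2, an iron-sulfur subunit, at 0.91 with 57.6 and 108 FPKM, and the accessory subunits Ndufc1 at 0.89, Ndufb3 at 0.82, Ndufb5 at 0.69 and Ndufs6 at 0.68. Ndufc1 shares a stretch of 112 bases with Ube2e1, a separate gene (224 and 122 reads). Adding all reads of Ube2e1 brings Ndufc1 to 0.53, short of 1.5 times. How many of those reads lie in the shared stretch is not known, so 0.53 is not a corrected value. Ndufs6 shares 30 exon bases with Mrpl36 (460 and 679 reads).

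Other genes of the complex I core were higher by less than 1.5 times. The NADH-binding Ndufv1 had 1052 and 896 reads, or 28.6 and 39.9 FPKM, a log2 ratio of 0.48 (0.35 to 0.61). The iron-sulfur subunits Ndufs7 and Ndufs8 were both at 0.51, with 54.7 and 77.8 FPKM and with 171 and 243 FPKM. These core genes lay close to the complex I median of 0.45. At the low end, Ndufa4, the gene with the most reads under the Nduf names (2371 and 1537), was at 0.08 (-0.01 to 0.18). Its product is now placed in complex IV, although its name places it in complex I here. Ndufb2 had the lowest ratio of complex I, with 57 and 27 reads, a log2 ratio of -0.37 (-1.09 to 0.32), and shares 146 exon bases with Braf on the other strand (207 and 65 reads).

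Complex II, which is also an enzyme of the citric acid cycle, had the smallest nuclear median. Its 4 genes all had intervals above a ratio of 1. Sdha, the flavoprotein that oxidises succinate, had 1251 and 900 reads, or 35.8 and 42.1 FPKM, a log2 ratio of 0.23 (0.11 to 0.36). The iron-sulfur subunit Sdhb was at 0.29 (0.17 to 0.40), with 92.1 and 112 FPKM. The membrane anchors Sdhc and Sdhd were at 0.24 (0.06 to 0.42) and 0.49 (0.37 to 0.61). The intervals of these anchors overlap.

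In complex III, the small subunits Uqcrq and Uqcr11 were past 1.5 times, at 0.77 (0.62 to 0.92) and 0.75 (0.62 to 0.89). Uqcrq went from 49.0 to 83.5 FPKM and Uqcr11 from 128 to 215 FPKM. The core protein Uqcrc1, with the most reads of the complex (3299 and 2849), was at 0.50 (0.43 to 0.57), and its partner Uqcrc2 was the lowest, at 0.09 (-0.08 to 0.25). The intervals of these 2 partners do not overlap. The Rieske iron-sulfur protein Uqcrfs1 was at 0.13 (0.02 to 0.25), with 184 and 202 FPKM. Cyc1, the cytochrome c1 of complex III, has a name that the rule did not take. It was at 0.77 (0.67 to 0.88), with 195 and 333 FPKM.

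Complex IV held the widest range. Cox4i1, the regulatory subunit that most tissues use, had 3880 and 3597 reads, or 229 and 348 FPKM, a log2 ratio of 0.60 (0.53 to 0.67). Cox7c, a small structural subunit, was at 0.61 (0.47 to 0.75). Both fall under 1.5 times with TMM or median-of-ratios scaling, which lowers every log2 ratio, by 0.08 under TMM. Cox4i2, the isoform of Cox4i1 known from lung and low oxygen, had 17 and 29 reads, or 2.30 and 6.42 FPKM, a log2 ratio of 1.48 (0.57 to 2.44), the largest of all members and the least precise of those past 1.5 times. Cox5a was at 0.51 (0.32 to 0.69). Cox8a, with the highest nuclear FPKM (630 and 762), was at 0.27 (0.18 to 0.37).

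Cox6a2, the isoform of Cox6a1 known from heart and skeletal muscle, was the only member past 1.5 times in the other direction. It had 87 and 22 reads, or 20.1 and 8.32 FPKM, a log2 ratio of -1.27 (-2.02 to -0.59), and shares 70 exon bases with Itgad on the other strand (2 and 0 reads). Its share of the summed Cox6a FPKM was 11.4% and 3.43% in the week-0 and the week-3 library, or 7.05% and 2.05% with overlapping exons merged, while Cox6a1 went from 157 to 234 FPKM. Cox6b2, the testis isoform, had 169 and 94 reads and a log2 ratio of -0.14 (-0.52 to 0.24), beside 0.46 (0.35 to 0.57) for Cox6b1. Cox7a2l, known as a factor that joins complexes III and IV into supercomplexes, was at 0.06 (-0.05 to 0.17), a sign that turns with TMM or median-of-ratios scaling, to -0.02 and -0.01, and Cox7a2 was at 0.36 (0.22 to 0.50). The other tissue-restricted isoforms were at or near 0. Cox7a1, the muscle isoform, had 6 and 3 reads, Cox8b had 0 and 1, and Cox8c, Cox7b2 and Ndufa4l2 had 0 reads in both libraries. These were the 5 members under 20 reads.

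In complex V, genes for one and the same protein differed in ratio. Atp5g1, Atp5g2 and Atp5g3 encode precursors with the same mature c subunit, the ring that turns in the membrane. Atp5g1 had 1606 and 1765 reads, or 25.8 and 46.4 FPKM, a log2 ratio of 0.85 (0.75 to 0.94). Atp5g3 had 930 and 1002 reads, or 49.9 and 88.0 FPKM, a log2 ratio of 0.82 (0.69 to 0.95). Atp5g2 had 2787 and 1589 reads, or 208 and 194 FPKM, a log2 ratio of -0.10 (-0.19 to -0.01). Atp5g2 thus made up 73.3% at week-0 and 59.0% at week-3 of the summed FPKM of the 3 genes, which itself went from 283 to 328. Adding reads of genes with a shared stretch did not turn this order. With its copy Gm10175 (300 and 182 reads) Atp5g2 was at -0.09. Atp5g1 shares 111 bases with Pdzd2, a separate gene, and with all 66 and 18 reads of Pdzd2 added it was at 0.80.

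The catalytic genes of complex V had ratios close to each other. Atp5b, the beta subunit that makes ATP and the nuclear member with the most reads (6577 and 5530), was at 0.46 (0.41 to 0.51), with 150 and 206 FPKM. Atp5a1, the alpha subunit, was at 0.49 (0.43 to 0.54), with 159 and 223 FPKM. The small membrane subunits Atp5k and Atp5l were past 1.5 times, at 0.95 (0.64 to 1.26) and 0.69 (0.51 to 0.87), and so was Atp5s, at 0.79 (0.22 to 1.36) on 53 and 56 reads. Atp5sl, at -0.35 (-0.57 to -0.13) with 532 and 255 reads, was the lowest. Its product is known as an assembly factor of complex I and not as a subunit of complex V. Just short of 1.5 times were Ndufb10, Atp5o and Cox6a1, at ratios of 1.48, 1.49 and 1.496, and just past it Cox4i1, Cox7c and Ndufs6, at 1.52, 1.53 and 1.60.

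Measured per length, the mitochondrially encoded genes of a complex outweighed its nuclear genes, except in complex I at week-0. Their summed FPKM was 0.855 times that of the nuclear genes of complex I at week-0 and 1.19 times at week-3. For complex III these ratios were 1.51 and 1.89, for complex IV 1.91 and 2.39, and for complex V 2.56 and 3.67. With the reads of the chromosome 1 copies added to their genes, the ratios were 0.944 and 1.31 for complex I, 2.73 and 3.33 for complex IV and 5.72 and 8.12 for complex V, while mt-Cytb of complex III has no such copy. The ratios with copies are too high if reads were counted on both gene and copy, which was not tested. The exon models behind the FPKM bear on such levels. In 55 of the 79 nuclear members the length was within 2% of all distinct annotated exons added up, which counts overlapping exons more than once, whereas a mitochondrially encoded gene is a single exon. With merged GENCODE M21 exons in place of the authors' lengths, the ratios were 0.801 and 1.10 for complex I and 1.04 and 1.28 for complex III. They were 1.87 and 2.29 for complex IV, and 1.83 and 2.67 for complex V. This step also changed the annotation, since some merged models were longer than the authors' lengths (Atp5l, 6443 and 511 bases). Merging and annotation cannot be told apart in these levels. The levels moved and the increase from week-0 to week-3 was there in all 4 complexes. The log2 ratios do not depend on length, since both libraries used the same exon models. The share of Atp5g2 with merged exons was 68.8% and 53.7%.

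Length and depth of the members differed from those of most genes. The median exon model was 2315 bases for nuclear members and 784 for mitochondrially encoded genes, beside 5133 for all genes tested. When all genes were cut into 4 equal groups by length, the shortest group, with 50 of the 79 nuclear members, had a median log2 ratio of 0.12, and the nuclear members there had 0.46. In the group with the most reads, of 4 cut in the same way, which held 68 of the 79, the medians were 0.11 and 0.43. Within the nuclear members the ratio did not follow length or level (Spearman's rho -0.08 with exon model length and -0.11 with FPKM at week-0, across 79 genes that share both libraries).

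The promoters of respiratory genes are known to hold sites for the factors NRF1 and GABPA. RefSeq (GRCm38.p6) gave windows of 300 bases, 250 before and 50 after a start, for 69 of the 84 nuclear members, 75 windows in all. The NRF1 motif, whose 10 letters stand in capitals below with any base allowed at the sixth, was read on both strands and found in 18 of the 75 windows, 24.0%, beside 6.38% of 21263 windows of protein-coding genes and 4.60% of all 32851. The GABPA motif CCGGAAGT, read on both strands, was in 5 of the 75, 6.67%, beside 5.15% and 3.89%. The windows below are those of members past 1.5 times, with the match in capitals, 5′ to 3′ on the minus strand, which is the strand of each gene. They are chr4:123718266-123718293 for Ndufs5, chr6:24527698-24527725 for Ndufa5, chr5:108434431-108434458 for Atp5k, chr2:73911296-73911323 for Atp5g3, chr13:73328480-73328507 for Ndufs6 and chr10:80406870-80406897 for Uqcr11. The first 5 hold the NRF1 motif, on the opposite strand in Atp5g3 and Ndufs6 and on both in Atp5k, and Uqcr11 holds the GABPA motif.
Ndufs5: ctgcttgctGCGCAGGCGCagacccgct
Ndufa5: gtgtgagctGCGCAGGCGCaaatctacc
Atp5k: ttcactgcgGCGCATGCGCctttctggc
Atp5g3: agccgcaccGCGCTTGCGCgcccagccc
Ndufs6: gactgctgtGCGCCTGCGCcggcacttg
Uqcr11: tctctcctccCCGGAAGTagatgtcaat
The 17 members tested with an NRF1 motif had a median log2 ratio of 0.49, with 5 past 1.5 times. The 49 without one had 0.39, with 9 past 1.5 times. Both counts stand beside 23.7% of all genes past 1.5 times. The 5 with a GABPA motif had a median of 0.39 and the 61 without one 0.45. Both splits overlapped widely, and a motif match is a description of the letters only.

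The genes around the chain were read from lists of known function. Of 44 genes tested, the assembly factors with the complex V inhibitor Atpif1, 15 were past 1.5 times and 2 past 1/1.5. Their median log2 ratio was 0.46, and the shares over all genes were 23.7% and 24.6%. For complex I the median over 13 was 0.49, with 5 past 1.5 times: Ndufaf6 (1.16), Ecsit (1.10), Ndufaf5 (1.01), Ndufaf2 (0.81) and Ndufaf7 (0.80). For complex IV the median over 17 was 0.47, with 8 past 1.5 times, among them Coa4 (2.18, on 13 and 36 reads) and Coa6 (0.95). Past 1/1.5 were Cox17, the copper chaperone of complex IV, at -1.48 with 123 and 27 reads, and Cox11, which builds the copper site of mt-Co1, at -0.94. Complexes II, III and V had medians of 0.13, 0.27 and 0.26 over 4, 6 and 4 genes, with Atpif1 (0.66) among those of complex V.

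Of the 14 genes of coenzyme Q synthesis and cytochrome c, 8 were past 1.5 times and 1 past 1/1.5. Cyc1 of complex III, at 0.77, was among these 8. Over all genes the shares were 23.7% and 24.6%, and the median of the list was 0.67. Cycs, cytochrome c itself, had 1683 and 1974 reads, a log2 ratio of 0.94, and Coq3, a methyltransferase of coenzyme Q synthesis, was at 1.65. Coq10b, a coenzyme Q-binding protein, was at -2.13, with 722 and 101 reads. Against the same background, the citric acid cycle had 7 of 16 past 1.5 times and 0 past 1/1.5, with a median of 0.52, from Pdha1 at 1.03 and Fh1 at 0.88 to Idh3g at -0.28. The list of carriers and porins, which also held import genes and prohibitins, had 4 of 11 past 1.5 times and 0 past 1/1.5. Its median was 0.41. The 4 were Tomm40 (1.47), Phb2 (0.91), Phb (0.73) and Slc25a4 (0.70). Slc25a5, the ADP/ATP carrier with the most reads (6892 and 4955), was at 0.23. All these medians stood above the all-gene median of 0.07.

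Of 16 genes tested that copy and read the mitochondrial genome, 7 were past 1.5 times and 2 past 1/1.5, beside 23.7% and 24.6% of all genes, with a median of 0.44. The transcription elongation factor Tefm was at 2.29, on 29 and 87 reads, and the mitochondrial RNA polymerase Polrmt at 0.72. Slirp and Lrpprc, which stabilise mitochondrial mRNAs, were at 0.76 and 0.61. The DNA polymerase Polg and the methyltransferase Tfb1m were at -0.73 and -0.70, and Tfam, which packages mitochondrial DNA, at 0.33. The nuclear regulators went both ways, with 2 of 8 past 1.5 times, 3 past 1/1.5 and a median of 0.02. The shares over all genes were 23.7% and 24.6%. The sign of that median turned with TMM scaling (-0.0643), with median-of-ratios scaling (-0.0572) and with a filter of 100 reads (-0.41). Esrra (1.60, on 27 and 50 reads) and Ppargc1b (1.25) were higher at week-3. Hcfc1 (-1.10), Pprc1 (-0.86) and Gabpb1 (-0.81) were lower. Nrf1 and Gabpa, whose motifs were counted above, were at -0.01 and 0.04.

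**Figure D4:**
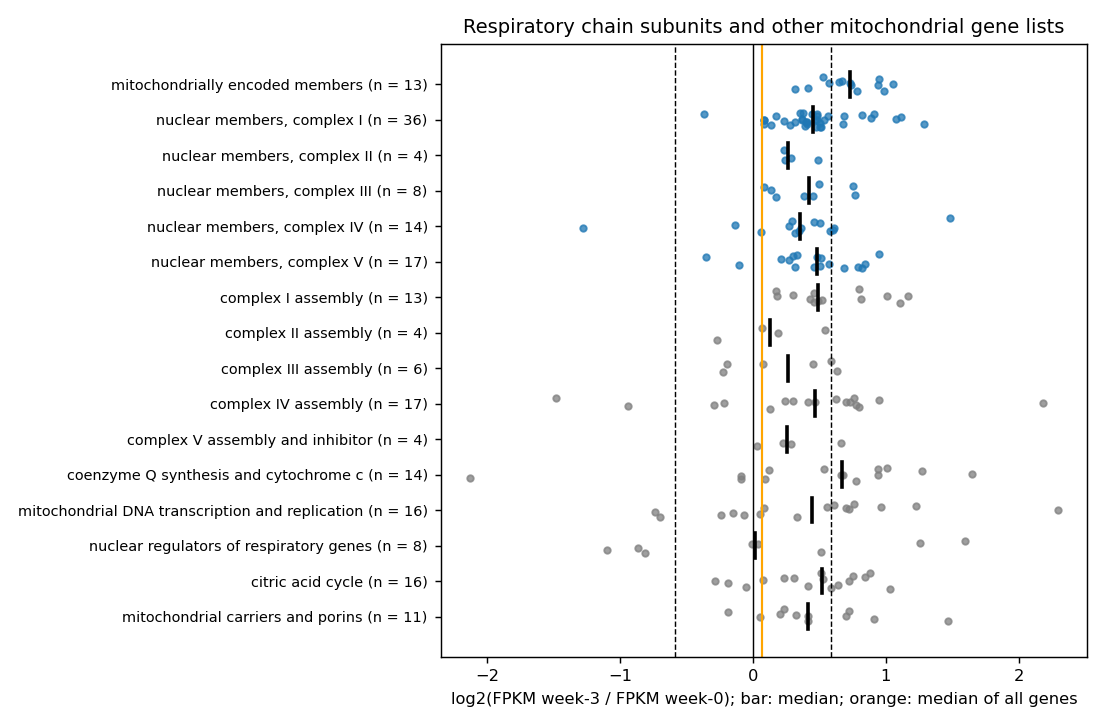
Log2 ratio of week-3 over week-0 FPKM for each gene of the respiratory chain (blue) and of the other mitochondrial lists (grey), with a black bar for each median, dashed lines at 1.5 and 1/1.5 times and an orange line at the all-gene median of 0.07. The mitochondrially encoded genes have the highest median, 0.73, and the nuclear regulators the lowest, 0.02 (below 0 with TMM or median-of-ratios scaling).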

How the data were processed

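BM LSKs of 2 groups were profiled by RNA-seq, week-0 and week-3, with 1 library each. The authors made cDNA from total RNA with a SMARTer low-input kit and sequenced it from both ends over 100 bases. After trimming, TopHat 2.0.9 placed the reads on GRCm38, with 2 mismatches allowed. The deposited tables give counts, as whole reads per gene without normalization, and FPKM, which the authors scaled by exon model length and by total reads on genes. The counting tool, its strand setting and the annotation release are not given in the sources used here. Reads on overlapping genes of opposite strands could therefore not be told apart. Of the nuclear members, 26 share exon bases with another gene, and in 11 the partner has at least 10% of the member's reads.

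The log2 ratio was taken from FPKM with no pseudocount. Genes with at least 20 reads over both libraries were kept, and called past a fold of 1.5. Each interval is the exact Clopper-Pearson interval at 95% for the fraction of its reads that came from week-3, rescaled to a log2 ratio. It treats each read as independent and covers no other error. Amplified cDNA gives many reads per molecule, so the interval can be too narrow even for the counting of molecules. No test between groups was run. TMM factors came from edgeR 4.0.16 and median-of-ratios factors from DESeq2 1.42.0 in R 4.3.3. The steps ran in Python 3.11.15 with scipy 1.17.1 and were tested on simulated data. Copies were found with BLAST+ 2.17.0 among GENCODE M21 transcripts, as stretches of at least 100 bases. They include stretches within separate genes, such as Ube2e1 and Pdzd2. Named genes are all mitochondrially encoded members, nuclear members past the fold, the highest, lowest and most covered of each complex, core subunits, isoform groups, members under 20 reads and, of other lists, examples among the genes past the fold or with the most reads. Tfam, Nrf1, Gabpa, Cyc1 and Idh3g fall outside that rule and were named after their values were seen. The members and lists were chosen with earlier results of these data known. The mitochondrial rRNA genes were not analysed here. A nuclear member of complex I enters the counts and medians but is not reported by itself.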

Additional observations from a re-analysis of the deposited data

Results flagged for a closer look

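The naming rule left out 4 pseudogenes, and 2 of them had reads above the floor of 3 reads. Atp5l-ps1 had 59 and 75 reads in the week-0 and the week-3 library, and Atp5l2-ps had 27 and 23. Both resemble Atp5l, which had 522 and 514 reads.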

How the results depend on the processing

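With 1 library per time point no library could be left out. No paired analysis was possible because each group holds 1 library and the labels carry no replicate numbers. Of 273 alternatives, 256 left a result within its limits, a count that includes alternatives that could not move it, such as scalings of a difference. All 129 for a median of the chain or a difference of medians kept its direction, not counting scalings of a difference. Some of the 129 could not move the value either, such as read filters that kept every mitochondrially encoded gene. The count is therefore no measure of robustness. The nuclear median ran from 0.36 to 0.46, the mitochondrially encoded one from 0.65 (TMM scaling) to 0.75, and their difference from 0.25 to 0.31. With a fold of 2, 4 nuclear members and 1 mitochondrially encoded member were past it, beside 10.6% of all genes. Without members that have a copy or shared exon bases, chosen after seeing the data, 9 of 46 nuclear members were past 1.5 times and 0 past 1/1.5, since Cox6a2 was among those left out. The other alternatives chosen after seeing the data added the reads of the copies on chromosome 1 or measured the fold against the median of all genes. The median of the nuclear regulators changed sign, to -0.0643 with TMM, -0.0572 with median-of-ratios scaling and -0.41 with at least 100 reads. Both scalings lower every ratio alike, and the filter drops Esrra and Ppargc1b, the highest of that list. With the reads of the copies added, the mitochondrially encoded share was 1.79% and 3.11%, provided that no read was counted on both gene and copy. On reads of protein-coding genes, the nuclear share was 1.53% and 2.08% and the mitochondrially encoded share 1.36% and 2.39%.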
